A study of Mus musculus with 8 samples.

Results

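Coding exon CGs were CG dinucleotides inside the protein-coding sequence of an annotated protein-coding gene and more than 1000 bp from the start of any such gene. They were chosen by position (mm9, GENCODE M1) and by coverage, with at least 10 reads at the cytosine in each of 8 mouse livers, and not by their methylation. On the 19 autosomes 16802 cytosines met the rule, which was 9.67% of the 173739 autosomal CG cytosines with that coverage, and they lay in 3793 genes. Each strand was counted apart, and 145 CGs had both strands among the members.

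Methylation was read by reduced representation bisulfite sequencing (RRBS) of liver DNA, which follows MspI fragments, cut at CCGG, through a bisulfite step that turns unmethylated cytosines into bases read as thymine. Mice of C57BL/6J (B6) were crossed with mice of DBA/2J (DBA) in both directions to give BXD F1 mice with a B6 mother and DXB F1 mice with a DBA mother. Each of B6, DBA, BXD and DXB was represented by 1 female and 1 male, all 16 weeks old and fasted for 16 h. The level of a CG is the percentage of its reads that kept the cytosine, with the reads of all SNP classes added.

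In vertebrate genomes most CGs outside CpG islands carry methylation on both strands, placed and kept by DNA methyltransferases. Bodies of transcribed genes are usually methylated, while CpG islands at gene starts are usually not. A coding exon lies within the gene body, and its CGs are also under selection for the amino acids they encode.

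Coverage and identity of the libraries were checked before the comparisons. The median number of reads at a coding exon CG was 33 for the DBA female, 45 for its male counterpart and between 61 and 157 in the other 6 mice. Reads with a strain SNP carried the B6 allele at 99.6% of sorted cytosine calls in the B6 female and at 83.3% in the library labelled B6 male, against 0.480% and 0.836% in the DBA mice and 50.7% to 51.3% in the F1 mice. In the library labelled B6 male the DBA alleles lay in windows of 1 Mb, and 2956 coding exon CGs (17.6%) were in windows where over 25% of sorted reads were DBA, and 9037 were in windows where under 10% were. Counts of male strain differences are given over all windows and over the latter. Only 1 of 15 hepatocyte marker genes, Fgb, had covered CGs within 1000 bp of its start, with a mean level of 27.5% over 5 CGs, and 1 of 10 blood cell markers did, Cd79b, with 85.0% at 1 CG, so these data offered little to check the tissue label.

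The sequences that carry the findings are printed here in the direction of the coding strand, from the NCBIM37 (mm9) assembly, with the measured CG in capitals. They show the surroundings of CGs at the lowest and the highest levels and of CGs that differed between strains. Fpgs and Nrl were among the genes with the lowest coding exon level, and each window is the CG nearest the median of its gene.

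Fpgs, first of 15 coding exons, chr2:32549612-32549672, minus strand, mean level 0.245%: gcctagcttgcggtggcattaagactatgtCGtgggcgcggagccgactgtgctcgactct

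Nrl, second of 2 coding exons, chr14:56139457-56139517, minus strand, mean level 0.578%: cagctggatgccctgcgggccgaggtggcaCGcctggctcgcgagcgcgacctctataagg

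Atxn1 and Zfp629 were among the genes with the highest level.

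Atxn1, first of 2 coding exons, chr13:45662701-45662761, minus strand, mean level 97.8%: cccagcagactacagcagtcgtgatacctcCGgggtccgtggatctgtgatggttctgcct

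Zfp629, second of 2 coding exons, chr7:134754657-134754717, minus strand, mean level 98.3%: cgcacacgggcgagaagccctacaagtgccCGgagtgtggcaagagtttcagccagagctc

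The windows of Fpgs and Nrl held 6 and 7 CGs in 61 bases, and those of Atxn1 and Zfp629 held 3 and 4. The next 5 windows surround the CG with the largest difference between the female parents in the 4 genes with 3 or more such calls and in Ddr1, which had the largest mean difference of the genes with 2.

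Tnks1bp1, coding exon 5 of 10, chr2:84903112-84903172, plus strand, 20.4% to 91.3% among mice: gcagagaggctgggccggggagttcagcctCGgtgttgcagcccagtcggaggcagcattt

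Crocc, coding exon 27 of 37, chr4:140581344-140581404, minus strand, 0% to 80.6% among mice: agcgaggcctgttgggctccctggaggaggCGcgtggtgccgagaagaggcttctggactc

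Ldlrad3, coding exon 2 of 6, chr2:101953736-101953796, minus strand, 20% to 94.8% among mice: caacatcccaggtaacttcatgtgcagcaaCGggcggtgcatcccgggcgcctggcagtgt

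Zfp697, coding exon 2 of 2, chr3:98231175-98231235, plus strand, 11.8% to 75% among mice: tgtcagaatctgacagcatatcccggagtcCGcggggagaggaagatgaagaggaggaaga

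Ddr1, coding exon 9 of 17, chr17:35825499-35825559, minus strand, 0% to 93.3% among mice: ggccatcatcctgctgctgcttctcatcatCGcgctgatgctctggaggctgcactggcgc

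The mean level of coding exon CGs was 58.4% ± 0.379 (SD, n = 8 mice), and the mice ranged from 57.8% in the DXB male to 59.1% in the BXD female. Levels of single CGs were split toward the ends of the scale. Of the 16802 CGs, 5265 (31.3%) had a mean level under 20%, 8511 (50.7%) one over 80%, and 3026 (18.01%) lay between, with a median of 81.0%. Coding CGs within 1000 bp of a gene start, which the rule left out, had a mean level of 7.74% ± 0.857 (n = 8 mice, 12098 CGs). The change across that limit was gradual, with 17.3% at the 420 members 1001 to 1100 bp from a start and 13.8% at the 461 coding CGs 901 to 1000 bp from one.

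**Figure D1:**
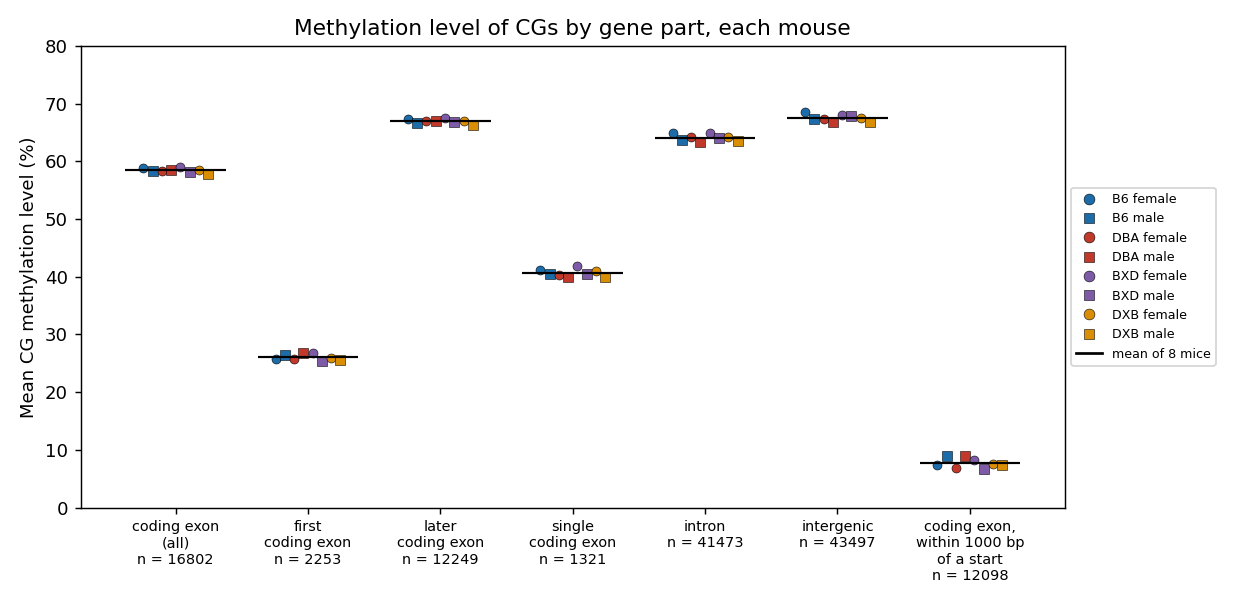
Mean CG methylation level (%) of each mouse (points; circles are females, squares males, colours the 4 groups) in each gene part, with the mean of 8 mice as a bar and the number of CGs below each part. The 8 mice lie within a few points of each other in every part, first coding exons sit near 26.1% and later coding exons near 66.9%.

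Genes with at least 10 coding exon CGs numbered 372, of which 185 had a mean level under 20%, 94 one over 80% and 93 one between. The lowest were Fpgs, which attaches glutamates to folate (1.02% ± 0.645, 12 CGs), Nrl, a transcription factor of rod photoreceptors (1.03% ± 0.587, 14 CGs), and Kctd1 (1.07% ± 0.431, 11 CGs). Ankrd24 with 25 CGs, the protein kinase gene Dapk3 with 28, the adaptor gene Shb with 17, Cdan1 with 13 and the potassium channel gene Kcnn2 with 15 followed, at 1.13% to 1.42%. No mouse exceeded 2.27% in any of these 8 genes. Their CGs were dense, with a mean of 17.2 to 31.8 CGs in the 200 bases around each, against 11.6 for all coding exon CGs. Exon order also differed among them. All CGs of Fpgs, Kctd1, Shb and Kcnn2 and 10 of the 13 of Cdan1 were in first coding exons. None of those of Nrl, Ankrd24 and Dapk3 were.

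The highest were Atxn1, the ataxin 1 gene (97.6% ± 1.03, 13 CGs), Zfp629, a zinc finger gene (97.6% ± 0.536, 11 CGs), and Zfhx3, a zinc finger homeobox gene (97.2% ± 1.502, 17 CGs). Rere, Sall4, Mmgt2, Hivep1 and Gtf2ird2 had levels of 96.9% to 97.2%, and no mouse was under 94.2% in any of the 8. Their mean CG numbers in 200 bases were 7.36 to 13.2. Among the genes with most coding exon CGs, Ttn, which encodes the muscle protein titin, had 93.5% ± 0.846 over 45 CGs, and Cilp2, a cartilage matrix gene, 11.6% ± 1.11 over 51. Speg, a kinase gene of striated muscle, lay between at 47.8% ± 0.996 over 40 CGs. The CGs listed under Pcdha11 (36.1% ± 4.34, 50 CGs) and Pcdhgc5 (23.3% ± 1.59, 45 CGs) span the alpha and gamma protocadherin clusters, since the annotation joins their variable exons under these names.

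Gene groups differed widely in level and little among mice. They also differed in local CG density and in exon order, and their levels were not matched for these. Developmental transcription factors had a mean of 18.1 CGs in 200 bases, the hepatocyte list 8.5 and the list of collagens and laminins 5.93. Of the CGs, 198 of 699 in the first and 2 of 162 in the last of these were in first coding exons. The 87 genes for developmental transcription factors with covered coding exon CGs (699 CGs) had a mean of 8.26% ± 0.994, and 75 of them were under 20% and 2 over 80%. Foxc1, a forkhead gene, had 4.45% ± 0.735 over 27 CGs and Nkx2-1, a homeobox gene of lung and thyroid, 3.27% ± 1.29 over 26. Clustered protocadherins had 32.0% ± 2.44 over 99 CGs of 3 genes, and ion channels of excitable cells 49.6% ± 0.992 over 365 CGs of 56. Within the latter, Grin2c, a glutamate receptor subunit, had 13.5% ± 1.01 over 36 CGs and Ryr1, the calcium release channel of skeletal muscle, 61.4% ± 1.51 over 26.

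Hepatocyte enzymes, plasma proteins and regulators had a mean of 55.4% ± 1.15 over 118 CGs of 34 genes. Of these genes 15 were over 80% and 3 under 20%. Fgg, which encodes the gamma chain of fibrinogen, had 25.6% ± 6.70 over 12 CGs and ranged among mice from 16.9% in the DBA female to 37.2% in the DXB male. Pcx, the pyruvate carboxylase gene of gluconeogenesis, had 77.1% ± 2.46 over 10 CGs.

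The list of collagens and laminins, which also held the heparan sulfate proteoglycan gene Hspg2, had 79.0% ± 0.945 over 162 CGs of 37 genes. In it Hspg2 had 93.4% ± 1.12 and Col1a1 34.8% ± 2.34. Zinc finger genes named Zfp had 78.3% ± 0.731 over 379 CGs of 68 genes, of which 61 were over 80%, although Zfp503 had 7.52% ± 1.27 over 27 CGs. In genes for ribosomal proteins, proteasome subunits and translation factors the mean was 67.2% ± 0.853 over 61 CGs of 17 genes, from Rpl24 at 1.03% ± 1.19 over 6 CGs to Eif3d at 95.7% ± 1.11 over 11. Writers, readers and erasers of DNA methylation had 86.3% ± 0.827 over 35 CGs of 6 genes, led in number by Tet3, which oxidises methylcytosine, at 96.2% ± 1.18 over 11. Imprinted genes had 66.3% ± 1.92 over 70 CGs of 13 genes, with Gnas at 52.4% ± 4.46 over 21 CGs and Begain at 32.0% ± 9.79 over 11. Olfactory and vomeronasal receptors were hardly covered, with 5 CGs in 4 of 1440 genes at 89.8% ± 0.998. The medians over CGs were 3.02% for developmental factors, 65.0% for the hepatocyte list and 95.03% for the Zfp genes, against 81.0% over all coding exon CGs.

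Coding exons were compared with introns of protein-coding genes at the same distance limit, within each mouse. The 41473 intron CGs had a mean level of 64.1% ± 0.586, and coding exon CGs were lower by 5.64 ± 0.383 points (SD of the difference, n = 8), with the same sign in 8 of 8 mice (exact sign-flip permutation test, two-sided, p = 0.0078, the smallest that 8 mice allow). With at least 30 reads in all 8 mice the difference was −10.3 ± 0.239 points, and over 1000 bp from any transcript start −8.06 ± 0.477. Transcript starts are, here and below, those of protein-coding genes only. The sign of this difference turned with the sites that were set side by side. Within bins of CG density, coding exons were higher by 15.6 ± 0.251 points, within the 1015 genes with at least 3 CGs of each kind by 6.37 ± 0.454 points, with each gene counted once by 1.24 ± 0.369 points, and within bins of distance from the gene start by 0.798 ± 0.265 points, each with p = 0.0078 in the same exact test. Of the 1015 genes, 617 were higher in coding exons and 398 in introns. Coding exon CGs were in denser surroundings, with a mean of 11.6 CGs in 200 bases against 6.28 in introns. A direction for coding exons against introns therefore holds only for a stated way of matching the sites. The sign-flip test, here and in the comparisons of exons and codons below, flips whole mice over a fixed set of sites. Its p-value measures agreement among the 8 mice and not the sampling of CGs or genes.

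First coding exons were compared with later ones, since the first lies nearest to the gene start. A CG was counted as first where it was in the first coding exon of every coding transcript over it, and as later where it was in none. The 2253 first exon CGs had levels of 25.4% to 26.8% in the 8 mice and the 12249 later exon CGs 66.3% to 67.4%, so the ranges did not overlap. First exons were lower by 40.9 ± 0.561 points, in 8 of 8 mice (exact sign-flip permutation test, p = 0.0078). Of first exon CGs 68.6% were under 20% and 17.8% over 80%, against 22.0% and 59.5% of later ones. The 1321 CGs of transcripts with a single coding exon had 40.7% ± 0.659, and 961 CGs that were first in some transcripts and later in others had 51.1% ± 0.531.

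Among later exons the level rose with the exon's number in the transcript with the longest coding sequence, from 47.1% ± 0.436 in exon 2 (2078 CGs) to 60.004% ± 0.407 in exon 3, 62.7% ± 0.599 in exon 4, 70.2% ± 0.417 in exons 5 to 9 and 77.7% ± 0.471 from exon 10 on (4128 CGs). Last coding exons, of any number from 2 on and so already counted above, had 52.1% ± 0.438 (3684 CGs). Their surroundings were denser (13.8 CGs in 200 bases) than those of exons from 10 on (8.81). They also lay nearer to a gene start, at a median of 8893 bp against 21703.5 bp. Exon length had no single direction. Later exons of at most 100 bp had 78.7% ± 0.440, those over 400 and up to 1000 bp 51.9% ± 0.384 and those over 1000 bp 60.6% ± 0.392 (2105 CGs). First exons had 16.6% ± 1.08 at up to 100 bp (128 CGs) and 36.5% ± 0.613 over 1000 bp (619 CGs).

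Local CG density separated levels further than exon number, exon length or distance did. Later exon CGs with at most 3 CGs in 200 bases had 85.4% ± 0.681 and those with 20 or more 9.64% ± 0.744. First exon CGs went from 66.8% ± 0.830 to 3.997% ± 0.563 over the same bins, and intron CGs from 78.2% ± 1.07 to 3.39% ± 0.668. At 10 to 14 CGs the level was 66.2% ± 0.468 in later exons, 35.4% ± 0.753 in first exons and 30.8% ± 0.906 in introns. Later exons thus stayed above introns in each of the 6 density bins.

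**Figure D2:**
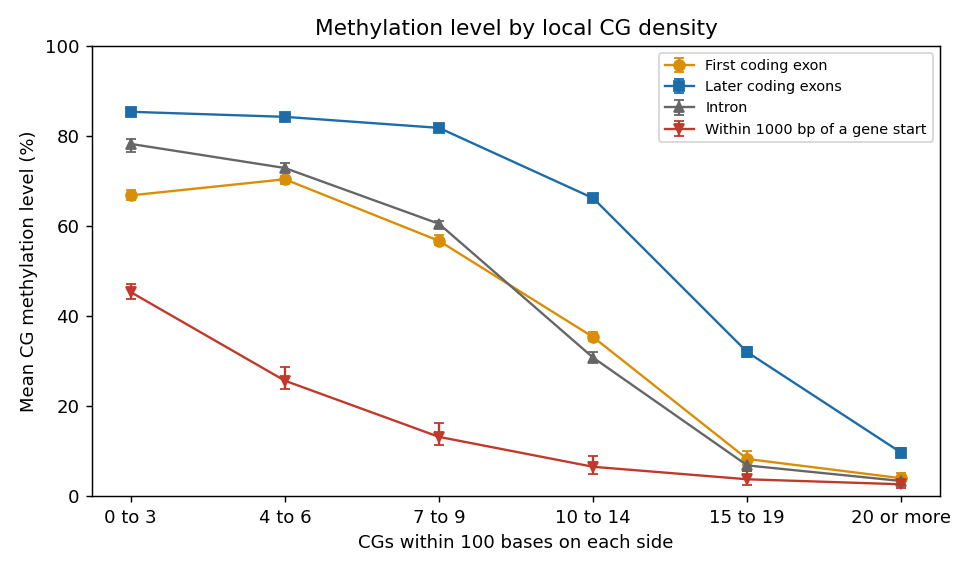
Mean CG methylation level (%) against the number of CGs within 100 bases on each side, for first and later coding exons, introns and CGs within 1000 bp of a gene start. Points are means of 8 mice and bars reach from the lowest to the highest mouse; later coding exons are the uppermost line in every bin, with 32.0% at 15 to 19 CGs where introns have 6.84%.

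First exons were lower than later exons at each distance from the gene start. At 1 to 2 kb first exons had 13.8% ± 0.959 and later exons 38.3% ± 0.777. Over 50 kb from any gene start first exons had 35.8% ± 0.388 (278 CGs) and later exons 80.4% ± 0.592 (1767 CGs). Within bins of distance the difference was −29.9 ± 0.330 points, within bins of density −18.4 ± 0.390, and within bins of both −12.2 ± 0.179, with p = 0.0078 in each (exact sign-flip permutation test). Distance was counted from the outer start of each gene, so a CG far from it can still lie near the start of another transcript. Start sites of other transcripts of a gene lay within 1000 bp of 3686 members (21.9%), and without these CGs the difference was −31.8 ± 0.448 points. The bins of distance were not repeated without these CGs.

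**Figure D3:**
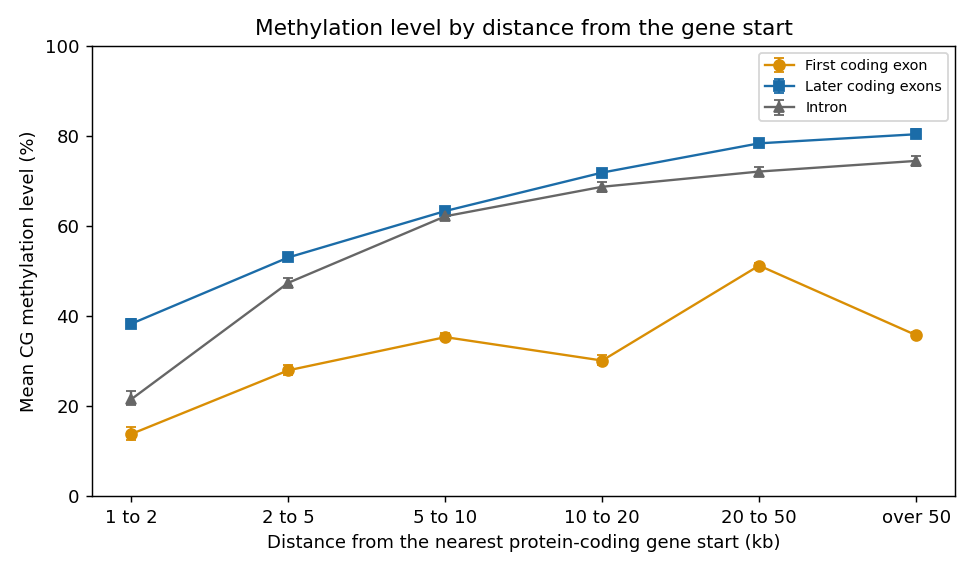
Mean CG methylation level (%) against the distance from the nearest protein-coding gene start (kb), for first coding exons, later coding exons and introns. Points are means of 8 mice and bars reach from the lowest to the highest mouse; first coding exons stay below later ones at all distances, and introns lie between them, from 21.6% at 1 to 2 kb to 74.5% over 50 kb.

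In 128 genes with covered CGs in both, first exons were lower in 96 and higher in 32, with a median difference of −17.2 points, and they were lower by over 20 points in 62 and higher by as much in 8. Of the 19 genes with at least 5 CGs of each kind, 16 were lower in the first exon and 3 higher. Trim71, an RNA-binding protein of stem cells, had 2.51% ± 0.693 in the first coding exon (38 CGs) and 97.5% ± 1.37 in later ones (6 CGs). Fbxo17, an F-box gene, had 2.08% ± 1.24 and 96.9% ± 1.98, and 1110012J17Rik had 3.31% ± 0.904 and 96.2%. Fgfr3, a fibroblast growth factor receptor, Smad6, an inhibitory SMAD, and the transcription factor gene Sall1 had differences of −86.2, −85.6 and −76.7 points.

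At the other end of these 19 genes, both kinds of exon had like levels. Mypn, which encodes a sarcomere protein, had 87.3% ± 2.72 in the first exon and 81.3% ± 4.93 in later ones. Sox17 had 7.81% ± 3.45 and 4.50% ± 1.40, and Nrxn2, a neurexin gene, 5.83% ± 1.82 and 5.14% ± 1.38. The homeobox genes Nkx2-1, Hoxb4 and Tlx1 had at most 8.20% in both, with differences of −0.202, −1.64 and −4.12 points.

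The place of a CG in the codon was described from the coding phase. CGs at codon positions 1-2, which fall in arginine codons, had 67.9% ± 0.439 (6167 CGs), those at positions 2-3 53.0% ± 0.389 (4355 CGs), and those that join a codon's last base to the next codon 53.2% ± 0.373 (6060 CGs, positions 3-1). Positions 1-2 exceeded positions 3-1 by 14.8 ± 0.224 points, in 8 of 8 mice (exact sign-flip permutation test, p = 0.0078). CGs at positions 1-2 also had fewer CGs around them, with 9.98 in 200 bases against 12.7, and within bins of density the difference was 4.88 ± 0.197 points. In later exons over 10 kb from a gene start it was 8.72 ± 0.342 points, and with each gene counted once 7.61 ± 0.256 points.

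Single codons spread further than the 3 places did. The arginine codon CGG had 74.97% ± 0.531 (3608 CGs) and CGC 51.6% ± 0.507 (1454 CGs), with CGT at 67.7% ± 0.536 and CGA at 65.7% ± 0.613. Of the codons that hold the CG at positions 2-3, the proline codon CCG had 61.2% ± 0.702, the threonine codon ACG 57.9% ± 0.453, the serine codon TCG 44.3% ± 0.512 and the alanine codon GCG 36.3% ± 0.482. The mean number of CGs in 200 bases was 8.49 around CGG and 16.2 around GCG. Of these 8 codons, CGG and CCG are the ones whose CG can lie in the MspI site CCGG, so RRBS did not sample the codons alike.

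**Figure D4:**
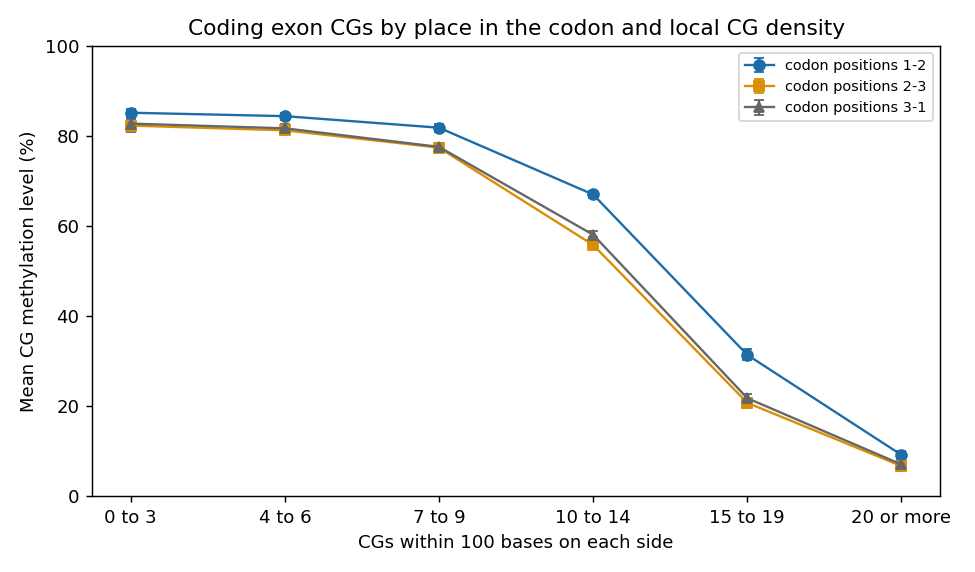
Mean methylation level (%) of coding exon CGs by their place in the codon against the number of CGs within 100 bases on each side. Points are means of 8 mice and bars reach from the lowest to the highest mouse; positions 1-2 lie highest in each bin, with 67.0% against 55.8% and 58.1% at 10 to 14 CGs.

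The spread of a single CG among the 8 mice was taken as the SD over mice after removal of the counting variance. For coding exon CGs this excess SD was 4.93 points, of a measured SD of 6.52 points with 4.26 from counting. For intron CGs it was 5.48 points. The spread followed the level. In coding exons it was 1.80 points for CGs under 10%, 13.1 points for CGs of 40 to 50% and 1.94 points for CGs of 90 to 100%, and in introns 1.88, 12.01 and 2.01 points. The excess SD was larger in coding exons in the 6 level bins from 20% to 80%, such as 8.07 against 7.06 points at 70 to 80%, and larger in introns in the other 4 bins. No test was made of these gaps.

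Between mice, levels of coding exon CGs differed by 3.84 points (B6 female and BXD male) to 6.89 points (DBA male and DXB female) on average. Pairs of different autosomal genotype differed by 5.77 points on average (20 pairs) and pairs of the same genotype by 4.88 (8 pairs), a gap of 0.892 points (exact permutation test over 420 assignments of the mice, one-sided, p = 0.0190). Of the same-genotype pairs the 6 among F1 mice differed by 4.20 to 4.79 points, while the B6 pair differed by 5.46 and the DBA pair by 6.74 points. Pairs of a B6 and a DBA mouse differed by 5.46 to 6.67 points. The B6 pair was at the low end of that range and the DBA pair above it, so the parents alone showed no clear gap between strains. The gap over all pairs includes the closeness of the F1 mice to each other, and its p-value does not measure B6 against DBA. The gap did not pass without the B6 male (0.842 points), the BXD female (0.638), the DXB female (0.648) or the DXB male (0.628). Coverage differed among these mice, and the deepest library, the BXD male, had the smallest mean distance to the others (4.68 points). With at least 30 reads in all 8 mice the gap was 0.737 points (the same permutation test, p = 0.0238). The labels put the library labelled B6 male with B6 although it carried DBA alleles in part of the genome, and over the 9037 CGs in windows where it carried B6 alleles the gap was 0.967 points (permutation p = 0.0190).

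The largest spread of a gene's mean over at least 5 CGs was in Tpi1, the triosephosphate isomerase gene of glycolysis. Its 5 CGs had 10.4% and 3.33% in the B6 female and male, 5% and 10.1% in those of DBA, and 69.4%, 18.98%, 56.8% and 50.2% in the BXD female, BXD male, DXB female and DXB male. Each of the 4 F1 mice was above each of the 4 parents there. Hspa1l, a heat shock protein 70 gene, was low only in the DBA male, with 12.5% over 12 CGs against 73.6% to 87.7% in the other 7 mice. Hspa1l has close relatives in its gene family, and whether unique alignment kept their reads apart was not tested.

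Ctf1, the cardiotrophin gene, had 0% in the B6 male and 16.7% in the DBA male, and 39.6% to 72.8% in the other mice over 6 CGs. Clec3b, which encodes tetranectin, was low in the B6 female (9.44%), the DBA female (10.4%) and the BXD male (16%) and 36.9% to 69.1% elsewhere. Crocc and Snx20 completed these 6 genes and are described with the strain differences.

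Strain differences were called within a sex by the study's own rule, in which the level of each mouse lay outside the exact 95% binomial interval of the other and the difference exceeded 50 points. With 1 mouse on each side, the intervals hold counting error only. Between the B6 and DBA females 76 coding exon CGs in 56 genes were called, which was 0.452% of the members, where 0.361% of all autosomal CGs were called. Of the 76, 60 were higher in B6 and 16 higher in DBA. Of the 627 called over all autosomal CGs, 558 were higher in B6 (0.321% of all CGs) and 69 higher in DBA (0.0397%). Only CGs of the mm9 reference were counted, and that reference derives from a B6 mouse. A CG lost in DBA could thus be called higher in B6, while a CG found only in DBA could not be called. The split by direction is therefore not balanced, here and in the calls for males and for B6 dosage. Between the males 71 were called, of which B6 was the higher at 55 and DBA at 16, where 0.326%, 0.244% and 0.0817% of all CGs were. In windows where the B6 male carried B6 alleles the males had 43 calls, 32 higher in B6 and 11 in DBA, which was 0.476% of the 9037 members there, where 0.431% of all CGs in such windows were called. Introns had 0.547% called in females and promoters 0.0401%, so the share in coding exons lay between them. Of the 76 CGs, 69 were in later and 2 in first coding exons, which was 0.563% and 0.0888% of them. The number called moved with the settings, to 10 with at least 30 reads in all mice, 306 with a difference above 30 points and 423 with 10 reads asked of the 2 females alone.

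The male parents and F1 mice had no part in the calls between females. The called CGs are not independent, since several lie close together in 1 gene and all were read in the same mice, so the shares below are given with no interval. Of the 76 CGs, 59 (77.6%) differed in the same direction between the males, and 35 were called there as well, all 35 in the same direction. Over all autosomal CGs, 332 of the 627 called between the females were called in the males too. At 33 of the 76 both DBA mice were under 5%, a kind of CG described below. The males had the same direction at 28 of these 33 and were called at 25. At the other 43 CGs these numbers were 31 and 10. Of all called CGs in windows where the B6 male carried B6 alleles, 84% had the same direction in the males. At the 60 CGs higher in the B6 female, the mean level was 87.2% and 66.7% in the B6 female and male, and 11.2% and 15.6% in DBA. At the 35 of these in windows with B6 alleles, the B6 male had 80.4% and the DBA male 19.97%. F1 mice had means of 49.3% to 54.0% at these CGs and of 43.4% to 53.6% at the 16 CGs higher in the DBA female. Since the females were chosen to lie over 50 points apart, a place between them says little.

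**Figure D5:**
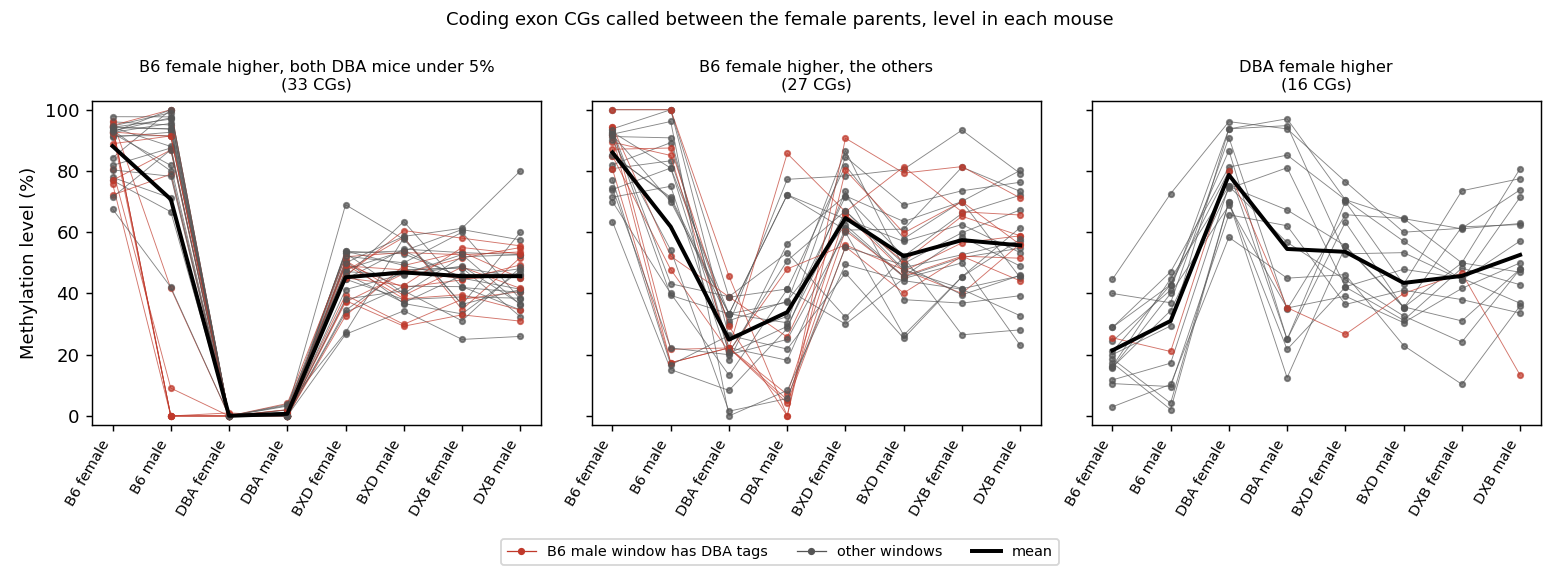
Methylation level (%) of the 76 coding exon CGs called between the B6 and DBA females in each of the 8 mice, 1 thin line for each CG and the mean as a thick line; red lines mark CGs in windows where the B6 male carried DBA alleles. In the left panel both DBA mice lie at or near 0% and the F1 mice near 46%, and 5 red lines fall to 0% in the B6 male.

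Reads sorted by SNP gave the level of each chromosome within the F1 mice. Of the 60 CGs higher in the B6 female, 26 had at least 10 sorted reads of each chromosome over the 4 F1 mice, and there the B6 chromosome had 87.2% and the DBA chromosome 4.37% on average, with a difference above 50 points at 26 of 26. Of these 26, 22 had both DBA mice under 5%, a kind of CG described next, and the other 4 lay within 13 bases of Crocc. Over the 892 coding exon CGs with such reads, the 2 chromosomes had 61.8% and 59.3%, with a median difference of 0 points, and 28 differed by over 50 points. None of the 16 CGs higher in the DBA female had enough sorted reads.

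The called CGs were split by whether both DBA mice were under 5%. At 33 CGs in 32 genes both DBA mice were under 5%, the mean difference between the females was 88.0 points, and the median of the F1 means was 46.3%. All 33 had another covered CG within 50 bases, which moved by over 30 points in the same direction at 2 of them, with a median difference of 0.665 points. At the other 43 CGs, in 25 genes, the mean difference was 59.7 points, and of 38 with such a neighbour 33 had one that moved by over 30 points, with a median of 48.9 points. A CG that is lost in DBA through a C-to-T change reads as 0% methylated, the study left C/T differences out of its SNP calls, and no DBA genome was used here, so a lost CG and an unmethylated CG cannot be told apart at the 33 CGs.

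Of these 33 CGs, 12 were in windows where the library labelled B6 male carried DBA alleles. In that library 5 of the 12 were at 0%, in Ankrd50, Fat4, Pdgfrl, Tbc1d9 and Celsr1, those of Crocc and Atp13a2 had 9.09% and 41.7%, and those of Evpl, Sun2, Mtap1b, Hsp90ab1 and Ahdc1 had 78.9% to 100%. None of the 21 CGs outside these windows was under 5% in it. At Fat4, a giant cadherin, the B6 female had 94.5%, the other 3 parents 0%, with 44.7% to 49.0% in the F1 mice. At Tbc1d9 the B6 female had 94.7%, the B6 male and both DBA mice 0%, and the F1 mice 32.7% to 53.6%.

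Most genes with more than 1 called CG had them among the 43 CGs without such low DBA levels. Tnks1bp1, a tankyrase-binding protein gene, had 6 called CGs, 4 of them between 84903127 and 84903320 on chromosome 2 in coding exon 5. At the CG printed above the B6 mice had 91.3% and 90.8%, the DBA mice 20.4% and 29.3%, and the F1 mice 49.8% to 67.3%. The B6 and DBA mice did not overlap there, and the 4 CGs of exon 5 were called in the males too, while the 2 CGs of exon 6 were not.

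In Crocc, which encodes the ciliary rootlet protein rootletin, 5 of 6 CGs within 43 bases were called in the females. The mean of the 6 CGs was 84.3% in the B6 female, 20.4% in the B6 male, 20.4% and 7.67% in the DBA female and male, and 40.3% to 54.0% in the F1 mice. The B6 male was thus with the DBA mice, and its window carried DBA alleles. In the F1 mice the B6 chromosome had 84.9% and the DBA chromosome 0.769% at the CG printed above, and 94.2% and 21.1% at the next called CG.

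Ldlrad3, an LDL receptor class A domain gene, had 3 CGs within 15 bases that were higher in DBA. Their mean was 24.4% and 39.2% in the B6 mice, 89.6% and 92.3% in the DBA mice, and 50% to 64.7% in the F1 mice, with no overlap of the 3 genotypes. Zfp697 had 3 of 27 CGs called with DBA higher, and its gene mean was 4.45% and 6.72% in B6 against 16.2% and 21.7% in DBA. In Klf11, a Krüppel-like factor, 2 of 5 CGs were called with DBA higher, and the gene mean was 61.4% and 67.5% in B6 against 86.0% and 88.6% in DBA, with F1 mice at 70.6% to 75.2%.

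Ddr1, a collagen receptor kinase, had 2 called CGs with both DBA mice under 5%. At the printed one the B6 mice had 93.3% and 80%, both DBA mice 0% and the F1 mice 38.1% to 60%, and the DBA share of sorted reads of the B6 male in this window was between the limits of 10% and 25%. Col6a6, a collagen VI chain, had 1 such CG, with 97.7% in both B6 mice, 0% in both DBA mice and 44.7% to 54.5% in the F1 mice. Wnt3a, a secreted Wnt ligand, had 90.3% and 87.5% in the B6 mice over 4 CGs, but 38.0% and 0% in the DBA female and male, and it lay in a window where the B6 male carried DBA alleles. The 4 CGs of Wnt3a had only 16 reads each in the B6 male and 10 in the DBA male.

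The remaining genes named for the females had smaller or opposite differences in the males. Snx20 had 26.3% and 10.1% in B6 and 64.0% and 25.3% in DBA, with 10 reads in the DBA female at its called CGs. In Fam78a the difference between B6 and DBA was −33.5 points in females and 16.8 points in males, in C130074G19Rik 48.3 and −11.0 points, and in 1700027D21Rik 51.7 and −4.67 points. These differences between the sexes rest on 1 mouse for each strain and sex and were not tested. At the called CGs of Fam78a the B6 male, the DBA female and the DBA male had 12 to 15 reads. Of the 71 CGs called in the males 11 were in Hspa1l, where the DBA male stood alone. At called CGs of Ptch1, Mrgprd, Dennd3, Triml2 and Oit1 the library labelled B6 male stood alone. It had 0% there, with 23 to 197 reads, and the other mice, of both strains and the F1, had 77.8% to 100%. These CGs count among the male calls higher in DBA, although the B6 female was as high as the DBA mice. Those of Ptch1, Mrgprd and Dennd3 were in windows where the B6 male carried DBA alleles.

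Dosage of the B6 genome (2, 1 or 0 autosomal sets) was tested over all 8 mice with sex as a covariate and the B6 male counted as 2 sets in all windows (limma, Benjamini-Hochberg adjustment over all 173739 CGs, change above 20 points from DBA to B6). It called 29 coding exon CGs in 27 genes, 24 higher with B6 and 5 with DBA, which was 0.173% of members where 0.17% of all CGs were called. In the same fit kept to CGs with a mean level of 5 to 95%, 50 of 9262 coding exon CGs were called (0.540%), 40 higher with B6, where 0.494% of such CGs were called in all. Of the 29, 26 had been called between the females, 22 were in windows where the B6 male carried B6 alleles and 4 in windows where it carried DBA alleles. With at least 30 reads in all 8 mice 6 coding exon CGs were called. The 29 became 10 without the B6 female, 9 without the DBA female, 15 without the DBA male, 11 with a term for each strain and 52 in a quasi-binomial model of the counts.

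Among the 29 called CGs, the 10 with the largest change were all higher in B6 and all called in both sexes. Their levels were 91.1% to 100% in the B6 mice, 0% to 3.77% in the DBA mice and 34.5% to 63.5% in the F1 mice, and since the CGs were ranked by this change, the gap between genotypes is no further result. All 10 belong to the 33 CGs at which a lost CG and an unmethylated CG cannot be told apart, and those of Ahdc1 and Mtap1b were in windows where the B6 male carried DBA alleles. The CG of Dnahc5, a dynein heavy chain, had 94.7% and 99.0% in B6, 0% in both DBA mice and 45.1% to 53.9% in the F1 mice (change 96.8 points, limma adjusted p = 0.00077). That of Src, a tyrosine kinase, had 94.4% and 93.8%, 0% in both and 38% to 44.7% (change 94.1 points, limma adjusted p = 0.0027). The others were in Col6a6, Ahdc1, 9030624J02Rik, Uck2, Fam189a2, Parp4, Mtap1b and Scly. Of the 29 CGs, 16 (55.2%) were at codon positions 3-1, where 36.1% of members were. Both DBA mice were under 5% at 21 of the 29 (72.4%), so the doubt about lost CGs covers most of these calls.

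Females had a mean of 58.7% ± 0.307 and males of 58.2% ± 0.285, a difference of 0.490 points (exact permutation test over 70 assignments, two-sided, p = 0.0857, where the smallest possible is 0.0286). With at least 30 reads in all 8 mice the difference was 0.0567 points (exact permutation p = 0.886). Over 1000 bp from any transcript start of a protein-coding gene it was 0.584 points (exact permutation p = 0.0286). Limma called 0 coding exon CGs for sex, as it did 0% of all CGs, with 955 of the 16802 (5.68%) at an unadjusted p under 0.05, where 4.43% of all CGs were. At that limit were 2469 of 41473 intron CGs, 2353 of 43497 intergenic CGs and 1334 of 59862 promoter CGs. The share over all CGs was thus lowered by promoters, and coding exons did not exceed introns. A quasi-binomial model of the counts called 5 coding exon CGs and 0.0449% of all CGs. These 5 are named here after their values were seen. At the CG of Itch, a ubiquitin ligase gene, females had 88.6% to 92.2% and males 45.6% to 67.3%, and the 2 CGs of Herc2 and that of Agpat6 were also higher in females, while that of Nrap was higher in males. The F1 mice and the parents had means of 58.4% ± 0.519 and 58.5% ± 0.242 (n = 4 each), a difference of −0.103 points (exact permutation test, p = 0.743), which was −0.612 points with at least 30 reads in all 8 mice (exact permutation p = 0.143).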

How the data were processed

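RRBS of liver DNA from 8 mice was analysed. The authors digested DNA with MspI, aligned reads to mm9 with BS Seeker, kept unique alignments and sorted reads by SNP class. They deposited raw counts of methylated and unmethylated reads for each cytosine, mouse and class, and the level as a fraction. The BS Seeker version is not given in the sources used here. Tables of the authors' own comparisons (mean fractions, p-values, differences) were not used.

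Here counts were added over classes, and a level is 100 times methylated reads over all reads. The extent of precision is set by coverage, at least 10 reads in each mouse, and intervals cover counting error only. CGs were placed by GENCODE M1 on NCBIM37, with density counted over 100 bases on each side. Tests were exact permutations of mice, the study's binomial rule, limma 3.58.1 in R 4.3.3 (levels, dosage and sex) and a quasi-binomial model, tested on simulated data, with Python 3.11.15, scipy 1.17.1 and pysam. Each group has 1 mouse of each sex. Alternatives covered coverage, distance, annotation, matching and leaving out each mouse. Members, gene lists and tests were chosen with earlier results of these data known. Genes were named by rank of level, number of CGs, first-to-later difference, number of calls, change and spread. Expression data and replicate libraries were not analysed here.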

Additional observations from a re-analysis of the deposited data

Results flagged for a closer look

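The difference between CGs at codon positions 1-2 and 3-1 was 15.01 points in the BXD male, farther from the other 3 males than their own range allows by Dixon's test (14.5 to 14.6 points in those). Chance flags about 1 in 20 such groups, and 16 groups were examined.

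In 3 genes the difference between B6 and DBA had opposite signs in the sexes, each resting on 1 mouse for each strain and sex, and the difference between the sexes was not tested. For Fam78a it was −33.5 points in females and 16.8 points in males. For C130074G19Rik it was 48.3 and −11.0 points, and for 1700027D21Rik 51.7 and −4.67 points.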

How the results depend on the processing

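Of 158 alternative values, 127 kept the direction and the call. The mean level moved from 58.4% to 52.7% with at least 30 reads, 62.4% over 1000 bp from any transcript start, 59.8% inside the coding sequence of every transcript and 70.8% with each gene counted once, and the excess SD of 4.93 points is 6.52 with counting left in. The sign of coding exon minus intron turned to 1.24 (each gene once), 6.37 (within genes), 15.6 (density bins) and 0.798 points (distance bins), the last 2 chosen after seeing the data, and it was −10.3 with 30 reads and −8.06 over 1000 bp from any transcript start. The female excess of 0.490 points was 0.0567 with 30 reads and passed at 0.584 over 1000 bp from any transcript start. F1 minus parents ran from −0.324 to 0.0827 points when 1 mouse was left out, turning positive without the B6 female (0.00526) and the DXB male (0.0827), and was −0.612 with 30 reads, and the genotype distance ran from 0.628 to 1.24 points, with 0.967 in windows with B6 alleles, a setting chosen after seeing the data. Calls between females were 10, 306 and 423, and between males 14, 262 and 175, with 30 reads, 30 points and reads in 2 mice only, and 43 between males in windows with B6 alleles. Dosage calls were 6 with 30 reads, 52 in the quasi-binomial model, 50 at 5 to 95%, 11 with a term for each strain and 9 to 25 with 1 mouse left out (10 without the B6 female, 9 without the DBA female, 15 without the DBA male); sex calls were 5 in the quasi-binomial model. The cause was not tested. First minus later exons and codon positions 1-2 minus 3-1 kept their sign in each alternative run, the latter with 7.61 points for each gene once against 14.8. Bins of density for first minus later exons (−18.4 points) and for codon positions (4.88 points) were not planned beforehand. Neither were bins of distance and density together (−12.2 points), the dosage fit at 5 to 95% and the settings in windows with B6 alleles. No fit with a replicate block was added, since the replicate number stands for sex, which is a term of the limma fits. Depth limits low-coverage calls, as 10 reads move a level in steps of 10 points.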
